A study of Homo sapiens with 5 samples.

Results

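The 28 genes described here make cholesterol, sense it and move it out of the cell or its lysosomes. They were chosen by function, with earlier results of these data known. A gene was taken only through probe sets that the platform gene table maps to it alone, which left 26 genes with 60 probe sets, of 19775 genes in all. CYP51A1, whose probe sets that table gives to another gene as well, and FDFT1 were not analysed here. The others fall into 6 sterol sensing and feedback genes, 17 of 19 named pathway enzymes and 3 efflux genes. RNA of C4-2B cells, a bone-metastatic line derived from LNCaP prostate cancer cells, was hybridised to 5 Affymetrix arrays, 1 for each condition. The conditions were 25 µM BR-DIM for 6 h or 48 h, 25 µM isoflavone for 6 h or 72 h, and a control with 0.1% DMSO, whose hours in culture the sources used here do not give. BR-DIM (B-DIM in the labels) is a formulated diindolylmethane, a compound of cruciferous vegetables, and the isoflavone is the soy mixture G2535, dosed by its genistein. The authors maintained C4-2B cells in a medium with 10% fetal bovine serum, which supplies lipoprotein cholesterol. Their array methods name no separate medium for the treatments.

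Cells build cholesterol from acetyl-CoA through mevalonate, isoprenoid diphosphates, squalene and lanosterol. When sterol in the endoplasmic reticulum is low, SCAP escorts the precursor of SREBP2 to the Golgi, where it is cut to a transcription factor that turns on the enzymes of the pathway. When sterol is plentiful, the INSIG proteins hold SCAP back, and the nuclear receptor LXR, activated by oxysterols, turns on transporters such as ABCA1 and ABCG1 that export cholesterol. INSIG1 is itself a target of SREBP, so its transcript is part of the feedback. Prostate cancer cells are known to keep cholesterol synthesis active, as sterol serves membranes and is the source of steroid hormones.

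Each value is the authors' linear signal of the gene's probe set with the highest mean. Signals under 97.1, the median of all signals, were raised to that floor before ratios were taken, which makes a ratio with such a signal a bound. Changes were counted from 2-fold, a log2 ratio of 1 either way. With 1 array per condition no difference was checked against replicates, no test was possible, and the number of arrays limits the precision of every value. Of the 26 genes, 23 lay above the floor on all 5 arrays and 1, ABCA1, lay under it on all 5. The arrays were already scaled, with trimmed means from 498.1 to 498.4. BR-DIM 48 h and isoflavone 6 h stood apart from the others in the markers of prostate luminal cells. All 7 of the 9 listed markers that had a probe set (KLK3, KLK2, FOLH1, KRT8, KRT18, EPCAM and CDH1) were at least 2-fold lower than in the control on each of these arrays, with a summed signal of 1651 at 48 h of BR-DIM and 1114 at 6 h of isoflavone, against 12153 in the control. The sums were 10625 at 6 h of BR-DIM and 10339 at 72 h of isoflavone, where 0 and 2 of the 7 were lower. The 6 markers of other cell types had sums from 33920 (isoflavone 6 h) to 51085 (BR-DIM 48 h) on these 2 arrays, 31308 at 6 h of BR-DIM and 40708 at 72 h of isoflavone, against 22882 in the control, nearly all of it VIM, with 1294, 1076, 645, 540.4 and 858 left without VIM (6 h and 48 h of BR-DIM, 6 h and 72 h of isoflavone, control), and PTPRC of leukocytes under the floor on all arrays. The part of these differences in the sterol genes was not tested. In bulk RNA, fewer cells of a kind and less RNA per cell cannot be told apart.

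Among the 26 members INSIG1 was the gene highest above the control at both times of BR-DIM, HMGCS1 passed 2-fold at both by its brightest probe set, and each compound left most of the pathway within 2-fold of the control. On BR-DIM 6 h, 3 of 25 measured members were at least 2-fold higher (INSIG1, HMGCS1 and IDI1), or 12.0%, beside 2.86% of all genes measured, and 0 were lower, beside 0.806%. On BR-DIM 48 h, 4 of 24 were higher (INSIG1, HMGCS1, ABCG1 and NPC1), or 16.7%, beside 5.33% of all genes, and 1 was lower (TM7SF2), beside 3.87%. Isoflavone gave fewer such members. On isoflavone 6 h, 1 of 24 was higher (HMGCS1), beside 1.18% of all genes, and 0 were lower, beside 3.82%. On isoflavone 72 h, 2 of 24 were higher (INSIG1 and ABCG1), beside 4.80% of all genes, and 1 was lower (EBP), beside 2.06%. These shares rest on between 0 and 4 genes each, from a list chosen with earlier results of these data known. The median log2 ratio of the measured members was 0.45 after 6 h of BR-DIM, 0.31 after 48 h of it, 0.15 after 6 h of isoflavone and 0.05 after 72 h of it, where the medians of all genes were 0.07, 0.06, 0.00 and 0.05. Above the control by any amount lay 20 of 25 members after 6 h of BR-DIM (57.2% of all genes), 15 of 24 after 48 h of it (54.5%), 17 of 24 after 6 h of isoflavone (50.3%) and 14 of 24 after 72 h of it (54.3%). By role, the median of the sensing and feedback genes was 0.64 and 0.51 after 6 h and 48 h of BR-DIM, and 0.36 and 0.35 after 6 h and 72 h of isoflavone. That of the enzymes was 0.28, -0.08, 0.13 and -0.07 in the same order. All 4 ratios share the control array, so a high or low signal there enters each of them.

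**Figure D1:**
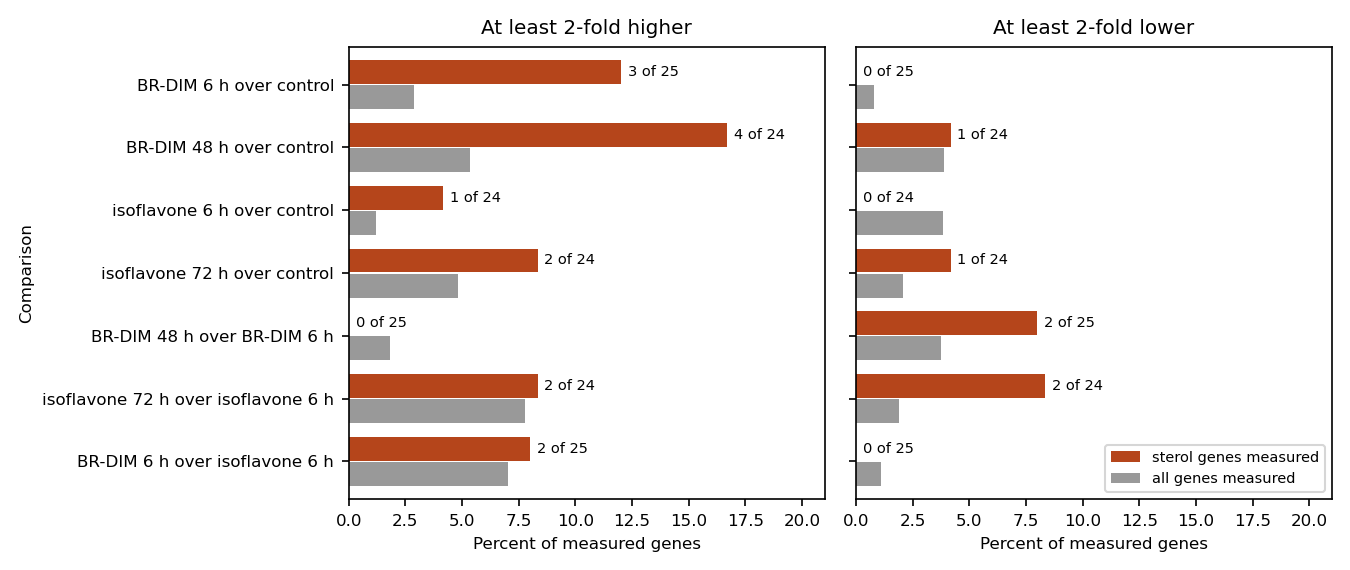
Percent of measured genes (horizontal axis) that were at least 2-fold higher (left) or lower (right) in each of 7 comparisons, for the sterol genes (red bars, with their counts) and for all genes measured (grey bars), with 1 array per condition. The widest gaps on the left are on BR-DIM 6 h (12.0% against 2.86%) and BR-DIM 48 h (16.7% against 5.33%), from 3 and 4 genes.

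**Figure D2:**
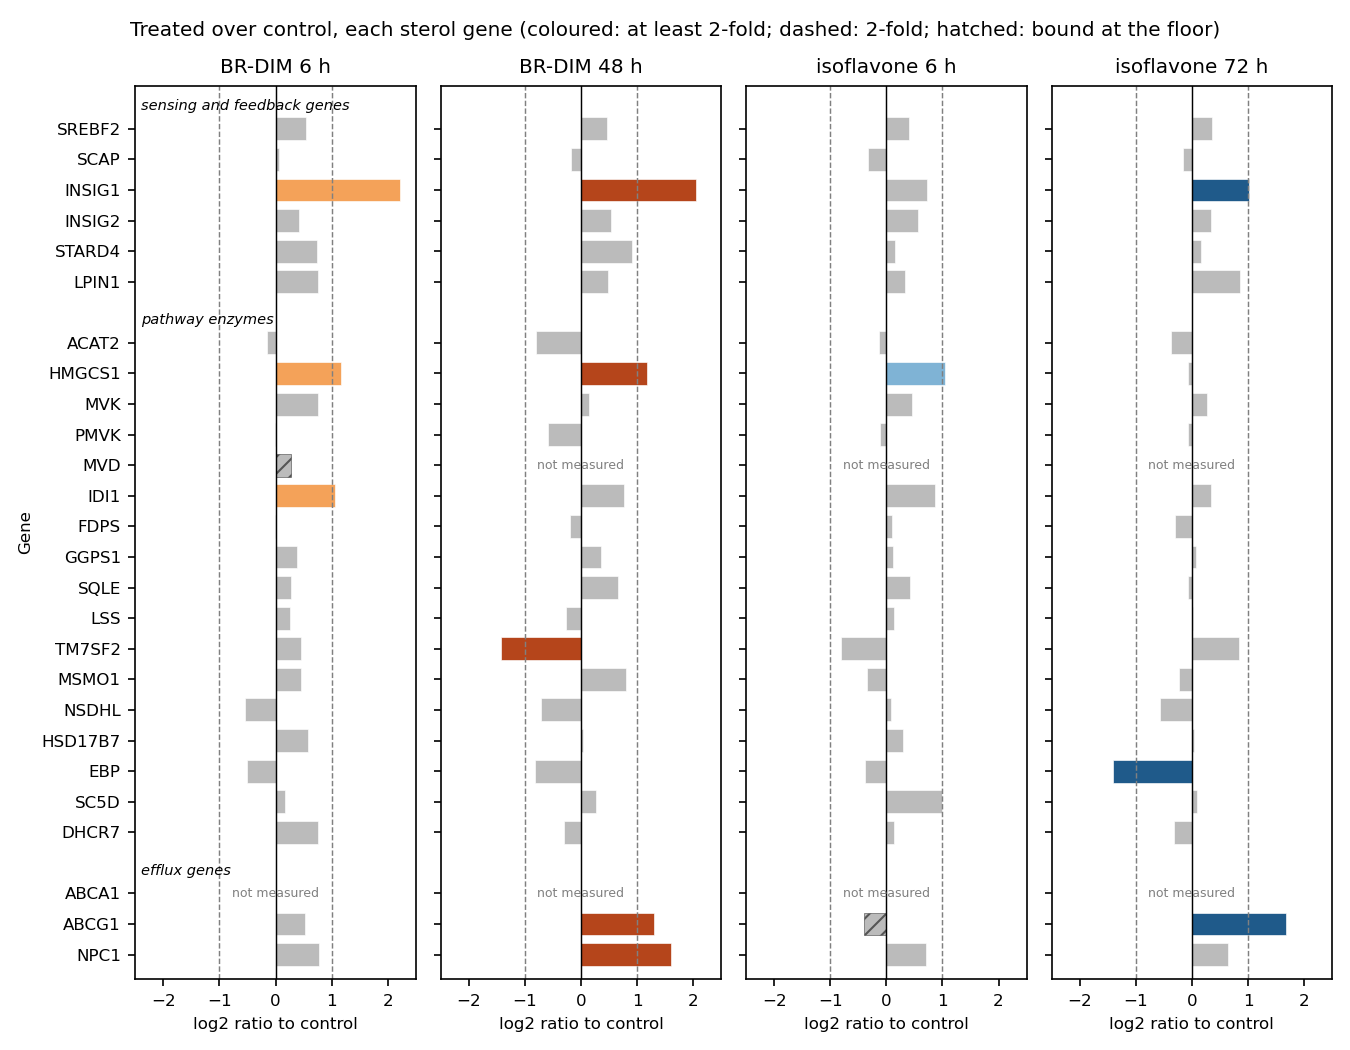
Log2 ratio to the control array (horizontal axis) of each sterol gene on the 4 treated arrays, 1 per condition; coloured bars pass 2-fold, dashed lines mark it and hatched bars are bounds at the floor. INSIG1 reaches 2.22 on BR-DIM 6 h and 2.05 on BR-DIM 48 h, and 19 of the 26 genes stay within 2-fold or are not measured on all 4 arrays.

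INSIG1, the protein that retains SCAP in the endoplasmic reticulum and helps to degrade HMG-CoA reductase, had the largest rise of all members. Its signal was 3402 after 6 h of BR-DIM, 3017 after 48 h of it, 1206 after 6 h of isoflavone and 1483 after 72 h of it, against 731 in the control. Every treated array was above the control, and both BR-DIM arrays were above both isoflavone arrays. The log2 ratios were 2.22, 2.05, 0.72 and 1.02 in the same order. Its other probe sets gave 1.51 and 1.03 after 6 h of BR-DIM, 1.90 and 1.08 after 48 h, 0.49 and 0.09 after 6 h of isoflavone, and 1.31 and 0.53 after 72 h, so all of them passed 2-fold with BR-DIM and one fell short of it on isoflavone 72 h. With all of its probe sets averaged, INSIG1 was 0.95 on isoflavone 72 h, under 2-fold. INSIG2, the second INSIG protein, differed less. It had 1287 and 1398 after 6 h and 48 h of BR-DIM, and 1426 and 1215 after 6 h and 72 h of isoflavone, against 966 in the control, with log2 ratios from 0.33 to 0.56.

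The upstream sequences of INSIG1 and HMGCS1 are shown because these genes passed 2-fold upward on 3 treated arrays each, and that of SREBF2 because it alone among the members' promoter windows holds the SREBP motif. ABCG1 passed 2-fold upward on 2 arrays. RefSeq promoter windows (GRCh38.p14, 250 bases before to 50 bases after a start) were found for 23 of the 26 members, as 33 windows, and were searched on both strands for TCACNCCAC, a consensus of SREBP sites, CCAAT, bound by NF-Y, and GGGCGG, bound by Sp1; NF-Y and Sp1 are the usual partners of SREBP at its targets. Matches of one motif that overlap were counted each. TCACNCCAC was in 1 of 33 member windows (3.03%) and in 396 of 35116 windows of all genes (1.13%). CCAAT was in 19 member windows (57.6%), beside 34.6% of all windows, and GGGCGG in 29 (87.9%), beside 45.0%. Windows of a gene with several starts can overlap, and a match is a run of letters, not a measured site. The 250 bases before the start are printed 5′ to 3′ on the gene's strand, for HMGCS1 those before its farthest upstream start, with matches of the motifs in capitals (CCAAT reads ATTGG and GGGCGG reads CCGCCC on the opposite strand).
INSIG1 (chr7:155297628-155297877, plus strand): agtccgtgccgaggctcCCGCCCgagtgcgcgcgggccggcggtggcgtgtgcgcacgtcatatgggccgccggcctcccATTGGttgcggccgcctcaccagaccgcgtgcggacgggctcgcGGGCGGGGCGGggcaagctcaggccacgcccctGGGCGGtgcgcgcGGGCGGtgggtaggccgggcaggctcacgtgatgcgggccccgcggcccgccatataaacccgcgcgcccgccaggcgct
HMGCS1 (chr5:43313413-43313662, minus strand): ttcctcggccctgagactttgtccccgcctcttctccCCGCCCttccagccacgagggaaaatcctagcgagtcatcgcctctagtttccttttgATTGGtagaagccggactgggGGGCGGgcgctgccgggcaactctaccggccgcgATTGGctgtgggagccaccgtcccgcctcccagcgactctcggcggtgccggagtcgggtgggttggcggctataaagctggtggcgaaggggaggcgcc
SREBF2 (chr22:41832855-41833104, plus strand): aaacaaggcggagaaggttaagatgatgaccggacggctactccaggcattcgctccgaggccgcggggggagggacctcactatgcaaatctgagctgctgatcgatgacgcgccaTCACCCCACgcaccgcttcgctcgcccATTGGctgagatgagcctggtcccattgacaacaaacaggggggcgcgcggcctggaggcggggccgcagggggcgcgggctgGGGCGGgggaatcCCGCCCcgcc
The SREBP match of SREBF2 lies farther from the start than its CCAAT match, which begins 106 bases before it. The INSIG1 stretch holds 1 CCAAT and 5 GGGCGG matches, of which a pair overlap, and the HMGCS1 stretch holds 2 of each.

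The other sensing and feedback genes differed from the control by less than 2-fold. SREBF2, which encodes SREBP2, had 627 and 591 after 6 h and 48 h of BR-DIM, and 566 and 553 after 6 h and 72 h of isoflavone, against 429.9 in the control, and its log2 ratios ran from 0.36 to 0.54. All 4 treated arrays lay above the control by this probe set, while the dimmest SREBF2 probe set lay below it on 3 of them (-0.30, -0.51 and -0.31, in the same order after BR-DIM 6 h). SCAP, the escort of SREBP, stayed between 872 (isoflavone 6 h) and 1151 (BR-DIM 6 h), against 1099 in the control. STARD4 carries cholesterol between membranes in the cytosol and is a target of SREBP2. Its signal was 1684 and 1890.2 after 6 h and 48 h of BR-DIM, and 1121 and 1127 after 6 h and 72 h of isoflavone, against 1009 in the control, so the BR-DIM arrays were the high ones, at log2 ratios of 0.74 and 0.91. LPIN1, a phosphatidate phosphatase of lipid synthesis that SREBP also induces, was highest on isoflavone 72 h at 994 and on BR-DIM 6 h at 927, against 551 in the control (0.85 and 0.75).

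The first steps of the pathway lead from acetoacetyl-CoA to isoprenoid diphosphates, and HMGCS1 and IDI1 among them passed 2-fold. HMGCS1, the cytosolic HMG-CoA synthase that makes the substrate of the rate-limiting reductase, had 1812 after 6 h of BR-DIM, 1842 after 48 h of it, 1662 after 6 h of isoflavone and 767 after 72 h of it, against 809 in the control. It was thus high on 3 treated arrays (log2 ratios 1.16, 1.19 and 1.04) and close to the control on isoflavone 72 h (-0.08). The other HMGCS1 probe set gave 0.86, 1.03, 0.40 and 0.02 in the same order, so the calls on BR-DIM 6 h and isoflavone 6 h each rest on 1 of 2 probe sets. With the floor added as a pseudocount the ratio on isoflavone 6 h was 0.96. IDI1 interconverts the isoprenoid diphosphates IPP and DMAPP. Its signal was 6666 after 6 h of BR-DIM, 5425 after 48 h of it, 5789 after 6 h of isoflavone and 4011 after 72 h of it, against 3184 in the control, all above the control and past 2-fold on BR-DIM 6 h (1.07). This probe set is of the kind whose probes can bind related transcripts (ID ending in _x_at). With such probe sets left out IDI1 was -0.26 there, and with all of its probe sets averaged 0.38. The next IDI1 probe set in brightness, of the same kind, gave 0.81 there, and the dimmer ones gave -0.26 and -0.10.

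The remaining enzymes of this arm lay within 2-fold of the control on all treated arrays, apart from MVD, which was measured on BR-DIM 6 h only. ACAT2, the cytosolic thiolase that opens the pathway, was lowest on BR-DIM 48 h, at 1371 against 2390.3 in the control (-0.80). MVK, mevalonate kinase, was highest on BR-DIM 6 h, at 432 against 257 in the control (0.75), and PMVK, which adds the next phosphate, was lowest on BR-DIM 48 h, at 670.3 against 1005 (-0.58). FDPS, the synthase of farnesyl diphosphate, ranged from 4362 to 5784 over the treated arrays, with the control inside that range at 5394. GGPS1, which makes geranylgeranyl diphosphate for protein prenylation in a branch off the sterol route, had log2 ratios from 0.08 (isoflavone 72 h) to 0.38 (BR-DIM 6 h). Its other probe set gave 0.61 and 0.59 on these arrays. MVD, the decarboxylase after PMVK, was above the floor on BR-DIM 6 h alone, at 118, against 68.1 in the control, and read from 32.9 to 59.2 on the other treated arrays.

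In the sterol arm of the pathway, TM7SF2 and EBP passed 2-fold, both downward. TM7SF2, a sterol C14 reductase, had 759 after 6 h of BR-DIM, 207 after 48 h of it, 315 after 6 h of isoflavone and 999 after 72 h of it, against 555 in the control. Its low signals were on BR-DIM 48 h (log2 ratio -1.43) and isoflavone 6 h (-0.82), the arrays low in all 7 luminal markers, and its high ones on BR-DIM 6 h (0.45) and isoflavone 72 h (0.85). It has 1 probe set here, and after the floor was raised to 471.7, the 75th percentile of signals, the ratio on BR-DIM 48 h was -0.23. EBP, the sterol isomerase that moves the double bond from C8 to C7, was below the control on every treated array by its brightest probe set. That probe set had 3191 after 6 h of BR-DIM, 2575 after 48 h of it, 3486 after 6 h of isoflavone and 1696 after 72 h of it, against 4521 in the control. The other bright EBP probe sets gave 0.12 and -0.09 on BR-DIM 6 h, and -0.23 and 0.03 on BR-DIM 48 h. EBP passed 2-fold on isoflavone 72 h (-1.41), where these other probe sets gave -0.97 and -0.61. Averaged over its probe sets EBP was -0.75 there.

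SQLE, squalene epoxidase, the second rate-limiting enzyme of the route, had 3232 after 6 h of BR-DIM, 4206 after 48 h of it, 3559 after 6 h of isoflavone and 2534 after 72 h of it, against 2662 in the control. The BR-DIM arrays and isoflavone 6 h were above the control, with log2 ratios of 0.28, 0.66 and 0.42, and isoflavone 72 h was at -0.07. SQLE was thus within 2-fold of the control throughout. MSMO1, which removes the C4 methyl groups, was above the control with BR-DIM (2801 at 6 h and 3565 at 48 h) and below it with isoflavone (1611 at 6 h and 1742 at 72 h), against 2040.1 in the control. SC5D, the desaturase late in the pathway, came just short of 2-fold on isoflavone 6 h, at 5565 against 2800.0 in the control (0.99), and lay between 2993 and 3358 on the other treated arrays; its other probe set gave 0.49. DHCR7 makes cholesterol from 7-dehydrocholesterol. It had 1353 after 6 h of BR-DIM (0.76), 651 after 48 h of it (-0.30), 874 after 6 h of isoflavone (0.13) and 641 after 72 h of it (-0.32), against 800.1 in the control, so it lay on either side of the control at the BR-DIM times.

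LSS, HSD17B7 and NSDHL complete the arm. LSS, which closes squalene epoxide into lanosterol, stayed between 1085 and 1552 on the treated arrays, with 1299 in the control. A dimmer LSS probe set, above the floor on 4 arrays, was below the control on every treated array. It gave -1.45 on isoflavone 6 h, a bound. HSD17B7, the 3-ketosteroid reductase, was 1166 on BR-DIM 6 h against 776 in the control (0.59) and within 0.29 of the control elsewhere. NSDHL, the dehydrogenase that works beside MSMO1, was lowest on BR-DIM 48 h, at 540.1 against 882 in the control (-0.71), and its other probe set gave -0.98 there and -1.05 on isoflavone 72 h.

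**Figure D3:**
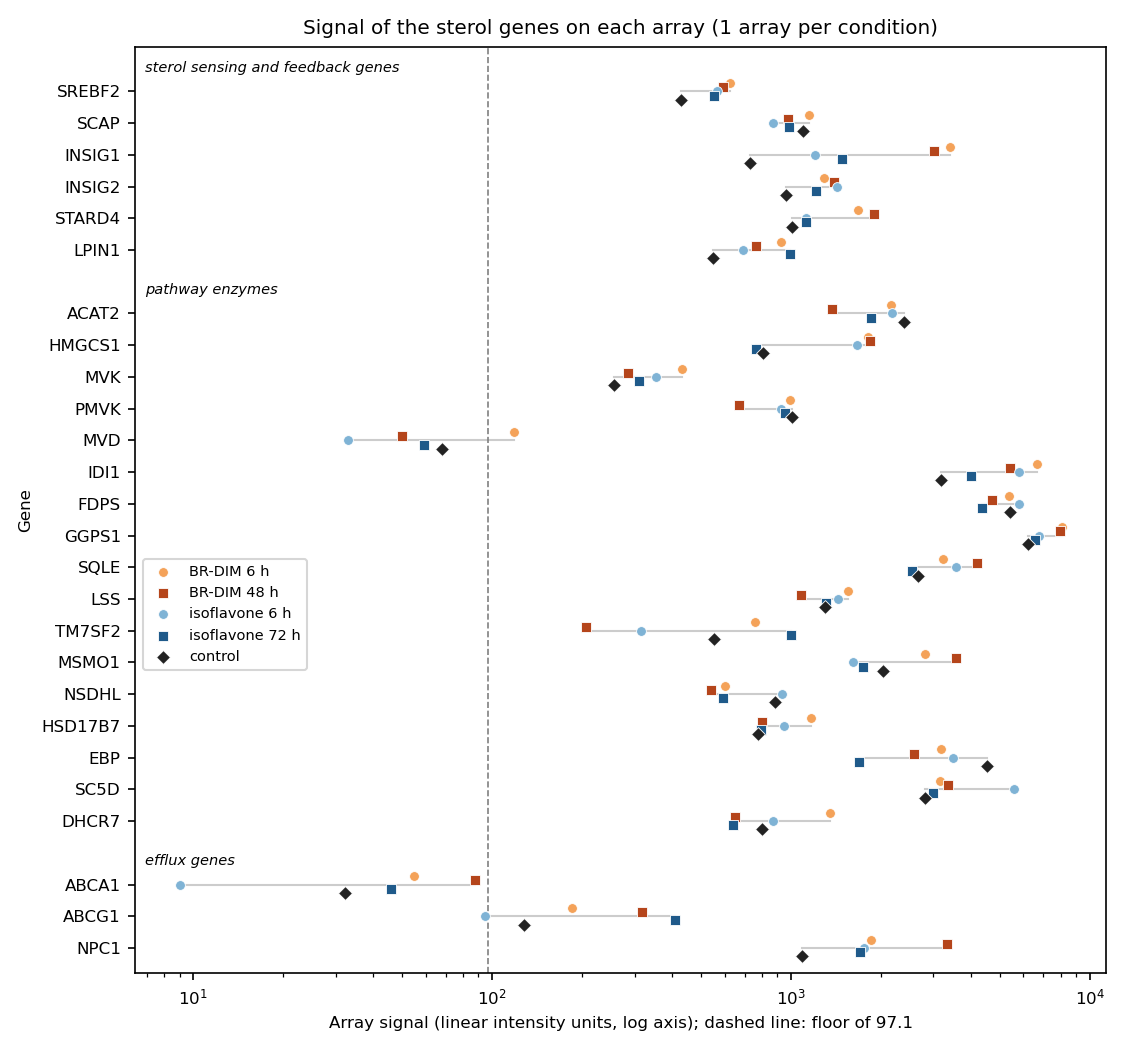
Array signal (horizontal axis, linear intensity units on a log scale) of each of the 26 sterol genes, with 1 point per array and a dashed line at the floor of 97.1. The control (diamond) is the lowest point for INSIG1, SREBF2, IDI1 and NPC1 and the highest for EBP and ACAT2, while ABCA1 lies under the floor throughout.

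Among the efflux genes, ABCG1 and NPC1 passed 2-fold. ABCG1, an LXR-induced exporter of cholesterol to high-density lipoprotein, had 185 after 6 h of BR-DIM, 317 after 48 h of it, 94.4 after 6 h of isoflavone and 411 after 72 h of it, against 128 in the control. The late array of each compound was thus the higher one, with log2 ratios of 1.31 at 48 h of BR-DIM and 1.68 at 72 h of isoflavone, and isoflavone 6 h was under the floor (-0.40, a bound). The signals are low, and the probe sets disagree on BR-DIM 48 h. The next probe set in brightness had 219, 101, 59.0 and 205 in the same order, against 107 in the control, and the average over all ABCG1 probe sets was 0.31 on BR-DIM 48 h. Without probe sets ending in _s_at or _x_at, ABCG1 was 0.83 on isoflavone 72 h. NPC1, which passes cholesterol from the lysosome to the rest of the cell, had 1854 after 6 h of BR-DIM, 3318 after 48 h of it, 1763 after 6 h of isoflavone and 1698 after 72 h of it, against 1087 in the control. All treated arrays were above the control, and BR-DIM 48 h stood above the others (1.61). The other NPC1 probe sets were dim, from 5.4 to 197, and the average with them was 0.30. ABCA1, the exporter to apolipoprotein A-I, read from 9.0 (isoflavone 6 h) to 87.5 (BR-DIM 48 h) by its brightest probe set, with 32.3 in the control, so no direction can be given.

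Comparisons that leave the control out gave few members past 2-fold. With BR-DIM 48 h over BR-DIM 6 h, 0 of 25 were higher (1.83% of all genes) and 2 were lower (3.74% of all genes). These were TM7SF2, with 207 at 48 h and 759 at 6 h (-1.88, and under 2-fold at -0.69 with the floor at 471.7), and DHCR7, with 651 at 48 h and 1353 at 6 h (-1.05, and under 2-fold at -0.81 with its probe sets averaged). INSIG1 and HMGCS1 differed little between the BR-DIM times (-0.17 and 0.02). With isoflavone 72 h over isoflavone 6 h, 2 of 24 were higher (7.77% of all genes), namely TM7SF2 (1.67) and ABCG1 (2.08, a bound), and 2 were lower (1.89% of all genes), namely HMGCS1 (-1.12) and EBP (-1.04). HMGCS1 had 767 at 72 h and 1662 at 6 h, and its other probe set gave a smaller difference, -0.38. The EBP ratio was close to the limit and was -0.98 with quantile normalization.

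The compounds shared 1 time and 1 stated dose, 25 µM for 6 h, though the isoflavone dose counts its genistein only. With BR-DIM 6 h over isoflavone 6 h, 2 of 25 members were higher (7.01% of all genes), namely INSIG1 (1.5) and TM7SF2 (1.27, and under 2-fold at 0.69 with the floor at 471.7), and 0 were lower (1.12% of all genes). INSIG1 was 3402 with BR-DIM and 1206 with isoflavone, while HMGCS1 was 1812 with BR-DIM and 1662 with isoflavone (0.13). IDI1 and SQLE were also close, at 0.20 and -0.14. MSMO1 (0.80), DHCR7 (0.63) and STARD4 (0.59) were higher with BR-DIM by less than 2-fold, and SC5D (-0.82) and NSDHL (-0.64) were lower by less than 2-fold. Isoflavone 6 h is one of the arrays low in luminal markers, so compound and that difference cannot be told apart here. The arrays at 48 h and 72 h differ in time and were not compared.

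Probe sets of the same gene could be set side by side for 12 members, which had 2 or more above the floor on all arrays. All probe sets of a member lay on one side of the control for 10 of 12 after 6 h of BR-DIM, 9 after 48 h of it, 8 after 6 h of isoflavone and 7 after 72 h of it. The exceptions on BR-DIM 6 h were IDI1 and EBP. The size differed as well, as for INSIG1 on BR-DIM 6 h, from 1.03 to 2.22, and SQLE, from 0.28 by its brightest probe set to 0.94. Members with a single probe set, such as SCAP, STARD4, MSMO1 and TM7SF2, have no such check.

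**Figure D4:**
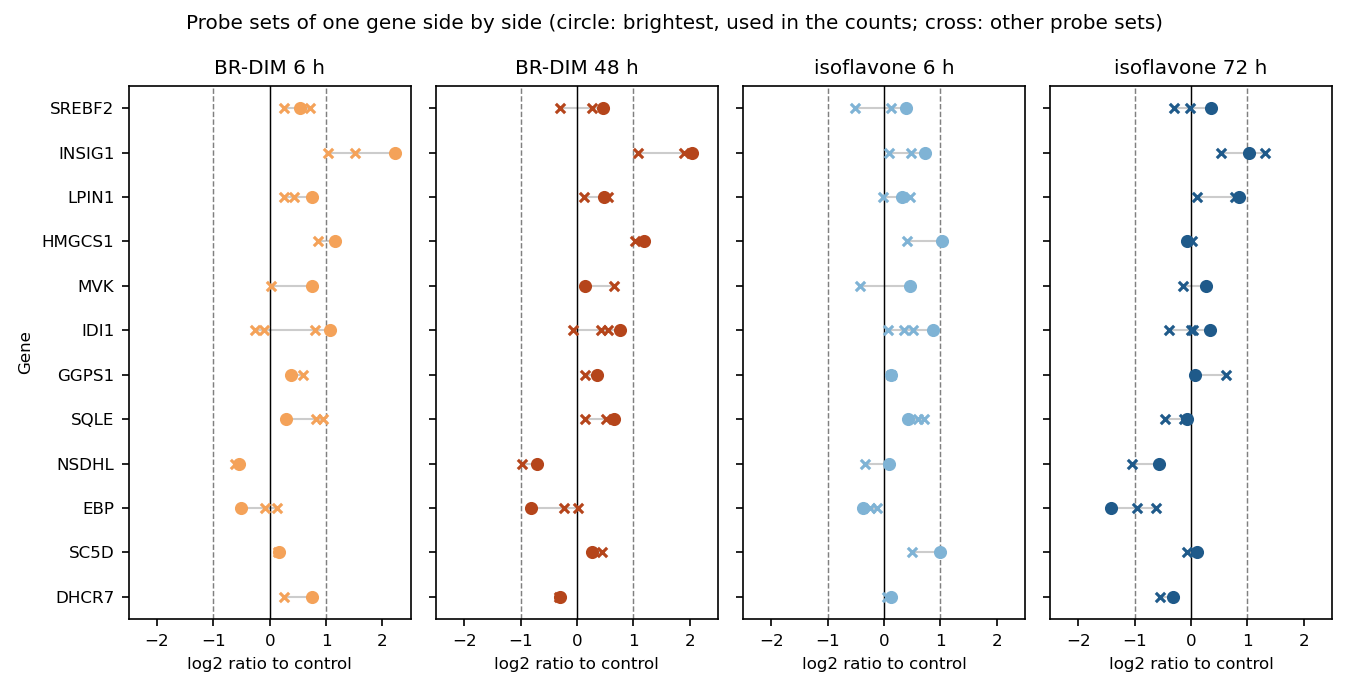
Log2 ratio to the control array (horizontal axis) of every probe set that exceeded the floor on all 5 arrays, for the 12 sterol genes with 2 or more; circles are the brightest probe set of each gene, used in the counts, crosses are the others, and dashed lines mark 2-fold. INSIG1 lies past 2-fold by all of its probe sets on both BR-DIM arrays, while those of IDI1 lie on both sides of 0 on BR-DIM 6 h.

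Of a further list of 20 genes of sterol metabolism, 14 were analysed here. On BR-DIM 6 h 1 was at least 2-fold higher and 0 were lower, beside 2.86% and 0.806% of all genes. On BR-DIM 48 h 1 was higher and 2 were lower, beside 5.33% and 3.87%. Isoflavone 6 h had 0 higher and 1 lower, beside 1.18% and 3.82%, and isoflavone 72 h had 3 higher and 0 lower, beside 4.80% and 2.06%. These are counts of 0 to 3 genes. VLDLR, a lipoprotein receptor, had 644 and 1003 after 6 h and 48 h of BR-DIM, and 68.2 and 543 after 6 h and 72 h of isoflavone, against 234 in the control, so it was above the control on 3 arrays (1.46, 2.10 and 1.22) and under the floor on isoflavone 6 h (-1.27, a bound). After the floor was raised to 471.7, VLDLR was 0.45 at 6 h of BR-DIM and 0.20 at 72 h of isoflavone, under 2-fold, and with the floor as a pseudocount it was 0.95 on isoflavone 72 h. SREBF1, which encodes SREBP1 and is itself induced by LXR, had 387, 51.3, 112 and 558 in the same order, against 211 in the control. Its low arrays were BR-DIM 48 h (-1.12, a bound) and isoflavone 6 h (-0.91), and its high array isoflavone 72 h (1.40). Both calls were lost under an alternative, at -0.56 on BR-DIM 48 h with probe sets averaged and 0.24 on isoflavone 72 h with the floor at 471.7. MBTPS2, the site-2 protease that releases active SREBP, was 9060 on isoflavone 72 h, against 3723 in the control (1.28), though its probe sets averaged to 0.36. NR1H3, the gene of LXRα, was under the floor on BR-DIM 48 h, at 72.9 against 233 in the control (-1.26, a bound). With the floor as a pseudocount it was -0.96 there, under 2-fold.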

How the data were processed

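C4-2B RNA was labelled and hybridised to Human Genome U133 Plus 2.0 arrays, 1 per condition. The authors made the deposited intensity values with Affymetrix software (MAS5 per the labels), as 1 linear signal per probe set scaled to a common level; its version, scaling target and detection calls are not given in the sources used here. Because a scaled signal hides a change in total RNA, every ratio is relative to the rest of the array.

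The gene table gives a single symbol for 41091 of the 54613 probe sets, several for 1801 and none for 11721; only the first kind was used. The probe set with the highest mean represents a gene. Python 3.11.15, numpy 2.4.6, pandas 2.3.3, scipy 1.17.1 and matplotlib 3.10.9 were used, and the procedure was tested on simulated data. No test across arrays was made. Per array, 48.4% to 52.6% of signals exceeded the floor. Members and lists were chosen with earlier results of these data known. All members are named, with signals on all arrays for those past 2-fold against the control, and of the further list those past it likewise; the SREBF2 sequence was chosen after its motif match was seen, and values of other members were picked after they were seen. Alternatives were quantile normalization, scaling each array to the control's median ratio, leaving the floor out, raising it to the 75th percentile, adding it as a pseudocount, averaging a gene's probe sets, dropping those ending in _s_at or _x_at, and counting changes from 1.5-fold or 3-fold.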

Additional observations from a re-analysis of the deposited data

Results flagged for a closer look

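TM7SF2 went opposite ways over time with the compounds, at log2 ratios of -1.88 for BR-DIM 48 h over BR-DIM 6 h and 1.67 for isoflavone 72 h over isoflavone 6 h. SREBF1 did so as well, at -2.00 (a bound) for BR-DIM 48 h over BR-DIM 6 h and 2.31 for isoflavone 72 h over isoflavone 6 h, and against the control it was -1.12 (a bound) at 48 h of BR-DIM and 1.40 at 72 h of isoflavone. VLDLR over the control was 1.46 and 2.10 after 6 h and 48 h of BR-DIM, and -1.27 (a bound) and 1.22 after 6 h and 72 h of isoflavone. The difference between the conditions was not tested for any of these genes, since each condition has 1 array. At 48 h of BR-DIM and 6 h of isoflavone the luminal markers sum to 1651 and 1114, against 12153 in the control. TM7SF2 and SREBF1 were lowest on these arrays, while VLDLR was lowest at 6 h of isoflavone and highest at 48 h of BR-DIM. The part of that marker difference in these values was not tested. With the floor at the 75th percentile, TM7SF2 was -0.69 between the BR-DIM times and SREBF1 0.24 between the isoflavone times, both under 2-fold.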

How the results depend on the processing

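No paired analysis was possible because each condition has 1 array. Over the alternatives, 129 summary values (counts and medians of members) were close to those reported and 46 moved; among ratios of single genes 179 kept their side of 2-fold, 37 fell under it and 1 reversed, IDI1 on BR-DIM 6 h over control, at -0.26 without probe sets ending in _s_at or _x_at. No median moved by 0.25 or more. The cause of the changes was not tested.

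With a rule of 1.5-fold, members higher than the control numbered 9 and 8 after 6 h and 48 h of BR-DIM and 5 and 5 after 6 h and 72 h of isoflavone, and lower ones 4 after 48 h of BR-DIM and 1 after 6 h of isoflavone; BR-DIM 48 h over 6 h gave 2 higher and 4 lower, isoflavone 72 h over 6 h gave 4 lower, and BR-DIM 6 h over isoflavone 6 h gave 6 higher and 2 lower. With a rule of 3-fold, the higher counts over the control were 1, 2, 0 and 1 in the same order, the lower ones 0 at 48 h of BR-DIM and 0 at 72 h of isoflavone, and the comparisons without the control gave 1 lower (BR-DIM times), 0 lower (isoflavone times) and 0 higher (compounds at 6 h). Without _s_at and _x_at probe sets, 1 was higher after 6 h of BR-DIM, 0 and 1 after 6 h and 72 h of isoflavone, 0 were lower on BR-DIM 48 h, 0 were lower between the BR-DIM times, 0 were higher and 0 lower between the isoflavone times, and 1 was higher between the compounds. That setting left 18 or 19 members measured in each comparison. TM7SF2 and DHCR7, whose probe sets all end in _s_at, were not among them, so their calls could not be checked this way. With all probe sets averaged, 2 were higher after 48 h of BR-DIM, 0 and 1 after 6 h and 72 h of isoflavone, 0 were lower on isoflavone 72 h, 1 was lower between the BR-DIM times and 0 between the isoflavone times.

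With the floor as a pseudocount, 0 and 1 were higher after 6 h and 72 h of isoflavone, and 1 was lower between the times of each compound. With a floor at the 75th percentile, 0 were lower on BR-DIM 48 h, 1 was higher on isoflavone 72 h, 1 was lower between the BR-DIM times, and 1 was higher between the isoflavone times and 1 between the compounds. That floor left 22 members measured, and ABCG1 was not among them. With no floor, 2 were lower on isoflavone 6 h and 4 were higher between the compounds. Quantile normalization left 1 lower between the isoflavone times. Among all genes called at 2-fold, it also moved the share called higher to 44.7% for BR-DIM 48 h over 6 h, where the main share was 32.8%, and to 73.5% for BR-DIM 6 h over isoflavone 6 h, where it was 86.3%. Signals near the floor, those of ABCG1, MVD and ABCA1, limit what can be read.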
